A study of Mus musculus with 6 samples.

Results

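The mitochondrial solute carriers of the SLC25 family are described here in mouse cardiac fibroblasts with and without TGFβ. Members were the genes of the count table whose symbol is *Slc25a* followed by a number, which gave 44 of 25140 genes. The rule itself uses names and no measured values. The rule leaves out relatives that carry other names, such as the uncoupling proteins, which are given near the end beside the import machinery and the shuttle enzymes.

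SLC25 proteins are small carriers, most of them in the inner mitochondrial membrane, that exchange or import one class of solute each, such as adenine nucleotides, phosphate, di- and tricarboxylates, amino acids, cofactors or iron. The inner membrane is otherwise largely closed to these solutes. Together with carriers of other families, SLC25 proteins thus determine which metabolites pass between the matrix and the cytosol. A subset carries calcium-binding EF hands that face the intermembrane space, so that cytosolic calcium can stimulate their transport without entering the matrix.

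The cells were primary cardiac fibroblasts from the adult heart of C57BL/6 mice, at passage 1. They were grown in DMEM with 25 mM glucose and 10% FBS and moved to 1% FBS before treatment, 16 h ahead by the sample labels and 24 h ahead by the study's methods. Groups of 3 cultures, called biological replicates in the study, received either vehicle or 10 ng/ml TGFβ, the cytokine that drives fibroblasts toward contractile myofibroblasts, for 24 h, so that the comparison asks what TGFβ did to gene expression. Vehicle and TGFβ cells shared strain, medium and serum, and carried no transgene or deletion by the labels. The labels and methods name cardiac fibroblasts, although the study's results text speaks of MEFs (mouse embryonic fibroblasts). The number of mice behind each culture was not given in the sources used here. The p-values therefore weigh the group difference against the spread among these 6 libraries within their groups, and whether they extend to other mice is not known.

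Libraries held between 27851677 and 31072338 reads counted on genes, and the mitochondrial genome supplied 0.660% to 0.789% of them. Expression is given in CPM, the read count relative to library size after TMM scaling, and changes as log2 fold changes of TGFβ over vehicle. All 10 fibroblast markers were present, of which 8 were lower with TGFβ by edgeR, the other two being *Col1a1* and *Col1a2*. In the 6 measured genes of the TGFβ response list, 5 were higher by edgeR, *Postn* (log2 fold change 1.55) and *Acta2* (1.03) among them. Of 9 cardiomyocyte markers 8 were measured, *Myh7* being absent from the count table. All of those measured but *Tnnt2* had means under 1 CPM in both groups. Their summed level was 38.6 to 59.7 CPM with vehicle and 27.4 to 40.6 CPM with TGFβ. Endothelial markers summed to 446 to 692 CPM with vehicle and 409 to 566 CPM with TGFβ, leukocyte markers to 241 to 344 and 209 to 312 CPM, and mesothelial markers to 23.0 to 62.2 and 14.8 to 34.2 CPM, with 0 genes of these 3 lists called by edgeR or DESeq2. At an unadjusted p under 0.05 edgeR gave 0 endothelial, 0 leukocyte and 1 mesothelial gene, and DESeq2 gave 1, 0 and 0. In the cardiomyocyte list edgeR called 0 genes, with 1 at an unadjusted p under 0.05, and DESeq2 called 1 lower. Smooth muscle and pericyte markers summed to 248 to 272 CPM with vehicle and 101 to 134 CPM with TGFβ. Most of that sum with vehicle was *Notch3*, the 1 gene of that list that was lower, with a mean of 207 CPM with vehicle and 57.3 CPM with TGFβ. The other 5 genes of the list were not called. The part of such cells in the results that follow was not tested. In bulk RNA, fewer cells of a type and less RNA per cell cannot be told apart.

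TGFβ moved the carrier family in both directions and by small amounts. Of the 44 genes, 39 had enough reads to be tested, and 14 of these (35.9%) passed an adjusted p of 0.05 in edgeR's quasi-likelihood test, while 40.7% of all 14334 genes tested did. Higher with TGFβ were 9 carriers (23.1%, against 20.5% of all genes) and lower were 5 (12.8%, against 20.1%). A log2 fold change beyond 0.5 in size was reached by 3 called carriers (7.69%), where 16.2% of all genes were called at that size. The median log2 fold change was 0.04 over the tested carriers and -0.0013 over all tested genes, and the median size was 0.18 and 0.21. The share of carriers called was thus near that of the transcriptome, and the account below concerns which carriers moved.

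The TGFβ libraries lay all above the vehicle libraries for 13 carriers and all below for 7, which is 51.3% of those tested, beside 53.3% of all genes. Called higher were *Slc25a13* (log2 fold change 0.51), *Slc25a14* (0.46), *Slc25a32* (0.35), *Slc25a17* (0.34), *Slc25a5* (0.32), *Slc25a39* (0.29), *Slc25a33* (0.28), *Slc25a1* (0.23) and *Slc25a24* (0.18). Called lower were *Slc25a23* (-0.90), *Slc25a35* (-0.64), *Slc25a42* (-0.48), *Slc25a12* (-0.26) and *Slc25a16* (-0.22). In size, the change of *Slc25a23* was exceeded by 8.60% of all tested genes, and that of *Slc25a24* by 55.6%.

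**Figure D1:**
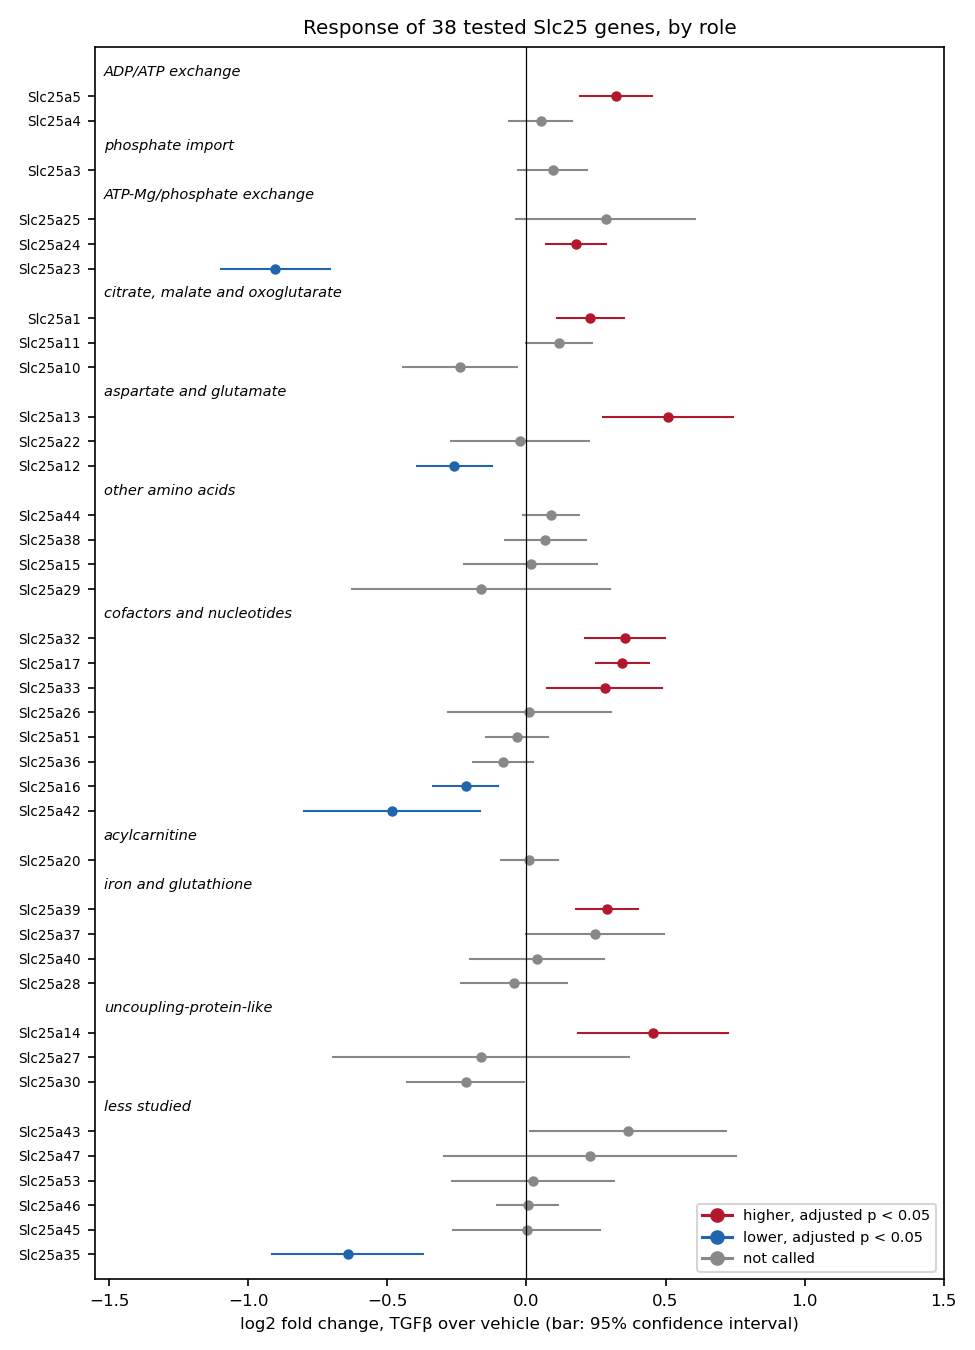
Log2 fold change of TGFβ over vehicle (horizontal axis) with its 95% confidence interval for 38 of the 39 tested carriers, grouped by the solute carried (3 libraries a group, edgeR). Red marks the 9 carriers called higher, blue the 5 called lower and grey 24 not called, with *Slc25a23* at -0.90 and *Slc25a13* at 0.51 as the extremes.

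Too few reads were counted on 5 carriers to test them. *Slc25a31*, the testis form of the ADP/ATP carrier, had 0 to 6 reads per library, and *Slc25a34* had 2 to 8. *Slc25a18*, a glutamate carrier, had 0, 2 and 3 reads in the vehicle libraries and 0 in each TGFβ library. *Slc25a21*, the oxodicarboxylate carrier, and *Slc25a48* each had 1 read, in a vehicle library. In *Slc25a18*, *Slc25a21* and *Slc25a48* the TGFβ libraries had 0 reads. Such a count allows up to 3 reads by counting error alone, so no difference was detectable in these genes at this depth. *Slc25a31* and *Slc25a34* had reads in both groups, but too few for the main test. The edgeR fit without a filter tested all 44 carriers and called 14, as many as the main fit.

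The carriers with calcium-binding EF hands are 2 aspartate/glutamate carriers and 3 ATP-Mg/phosphate carriers. This group was put together after the values had been seen. It held 4 called genes out of 5, where 40.7% of all genes were called, a count from which nothing is read. In each of the 2 subfamilies one isoform rose while another fell. *Slc25a13* (citrin) rose and *Slc25a12* (aralar) fell among the aspartate/glutamate carriers, which bring glutamate and a proton into the matrix in exchange for aspartate and serve the malate-aspartate shuttle. *Slc25a24* rose and *Slc25a23* fell among the ATP-Mg/phosphate carriers, which adjust the adenine nucleotide content of the matrix.

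Both aspartate/glutamate carriers and *Slc25a23* lie on minus strands in GRCm38 (mm10), *Slc25a12* (ENSMUSG00000027010) at chr2:71271063-71367749, *Slc25a13* (ENSMUSG00000015112) at chr6:6041218-6217173 and *Slc25a23* (ENSMUSG00000046329) at chr17:57043711-57059863 (GENCODE M21). *Slc25a24* (ENSMUSG00000040322) lies on the plus strand at chr3:109123149-109168457. The promoters of these 4 genes are shown because they carry the opposed changes within the calcium-binding group. Each line gives the 250 bases before an annotated start in RefSeq (GRCm38.p6), 5′ to 3′ on the gene's strand, at chr2:71367756-71368005, chr6:6217174-6217423, chr17:57059864-57060113 and chr3:109122899-109123148, and capitals mark matches to CAGAC (a core of Smad binding sites) or CCAAT on either strand.
Slc25a12: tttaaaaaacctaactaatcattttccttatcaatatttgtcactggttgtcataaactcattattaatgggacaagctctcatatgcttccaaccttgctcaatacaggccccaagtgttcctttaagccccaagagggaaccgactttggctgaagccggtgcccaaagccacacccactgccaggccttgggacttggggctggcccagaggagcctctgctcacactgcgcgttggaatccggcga
Slc25a13: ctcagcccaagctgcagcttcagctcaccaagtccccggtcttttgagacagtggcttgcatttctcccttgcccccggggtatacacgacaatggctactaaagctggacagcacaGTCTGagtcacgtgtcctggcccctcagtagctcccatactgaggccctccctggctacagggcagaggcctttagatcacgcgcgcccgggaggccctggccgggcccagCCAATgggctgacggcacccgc
Slc25a23: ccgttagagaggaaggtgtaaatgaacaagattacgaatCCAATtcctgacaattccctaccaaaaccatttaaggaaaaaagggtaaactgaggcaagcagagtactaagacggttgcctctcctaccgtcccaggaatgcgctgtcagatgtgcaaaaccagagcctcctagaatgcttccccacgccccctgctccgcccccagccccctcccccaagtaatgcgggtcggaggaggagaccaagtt
Slc25a24: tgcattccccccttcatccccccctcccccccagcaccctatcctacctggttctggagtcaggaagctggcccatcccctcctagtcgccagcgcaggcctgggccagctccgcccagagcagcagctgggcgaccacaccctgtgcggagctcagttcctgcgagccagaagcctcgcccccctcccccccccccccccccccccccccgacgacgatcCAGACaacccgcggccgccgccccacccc
RefSeq promoters matched 35 of the 44 carriers and gave 45 windows. CAGAC was in 17 of the 45 windows, and in 42.2% of all 32851 promoter windows of the same length. CCAAT was in 21 of the 45, and in 33.8% of all. TGCGCA, the core of the NRF1 site, was in 4 of the 45 (6.43% of all) and TGACGTCA, the cyclic AMP response element, in 2 (1.55% of all). In the 4 windows printed, *Slc25a13* held 1 CAGAC and 1 CCAAT, *Slc25a23* held 1 CCAAT, *Slc25a24* held 1 CAGAC and *Slc25a12* held neither. Such matches describe the letters of these windows only.

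Of the 39 tested carriers, *Slc25a23* showed the largest change. Values are given throughout in the order of the vehicle libraries with 31072338, 29296570 and 29331999 reads and the TGFβ libraries with 27851677, 28894151 and 28641986 reads. Its expression was 14.6, 13.7 and 15.8 CPM with vehicle and 7.46, 7.70 and 8.45 CPM with TGFβ. The groups were well apart, each TGFβ library lying far below the lowest vehicle library. From 14.7 ± 1.05 CPM (SD, n = 3) to 7.87 ± 0.520 CPM, expression fell by 46.5%, with a log2 fold change of -0.90 (standard error 0.08, 95% confidence interval -1.10 to -0.71, edgeR adjusted p = 0.000157).

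*Slc25a24*, the isoform of the same exchanger with the highest level per kilobase in these cells (19.9 CPM per kb with vehicle, against 2.78 for *Slc25a23* and 1.86 for *Slc25a25*), moved the other way by a smaller step. It was at 71.5, 68.8 and 64.3 CPM with vehicle and at 77.5, 77.2 and 76.8 CPM with TGFβ. The TGFβ libraries were nearly equal and all above the vehicle libraries, with a log2 fold change of 0.18 (standard error 0.05, edgeR adjusted p = 0.0168). The call on *Slc25a24* held in each of 12 alternative settings, but only narrowly in some, with an edgeR adjusted p of up to 0.0498. *Slc25a25*, the remaining isoform, was at 14.1, 13.0 and 16.8 CPM with vehicle and at 19.1, 14.5 and 19.9 CPM with TGFβ. Here the groups overlapped through the TGFβ library at 14.5 CPM, and the log2 fold change of 0.28 did not pass the test (standard error 0.14, edgeR adjusted p = 0.140). Of 12 alternative settings *Slc25a25* passed in 1, the fit without that library, at 0.41 (edgeR adjusted p = 0.0331). The gene span of *Slc25a25* overlaps that of *Naif1* on the opposite strand. Reads over the whole of *Naif1* amounted to 56.5% of those of *Slc25a25*, and strand use in counting was not given in the sources used here. Of the 75-base windows in the longest *Slc25a25* transcript, 0% occur in transcripts of other genes. Windows of its other transcripts were not tested.

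Of the aspartate/glutamate carriers, *Slc25a12* was the more abundant per kilobase, at 4.64 CPM per kb with vehicle and 3.87 with TGFβ, while *Slc25a13* was at 1.07 and 1.53 CPM per kb. In single libraries *Slc25a12* was at 33.7, 34.4 and 34.0 CPM with vehicle and at 27.3, 30.8 and 27.2 CPM with TGFβ. All TGFβ libraries lay below the tight vehicle group, for a log2 fold change of -0.26 (standard error 0.06, edgeR adjusted p = 0.00946). *Slc25a13*, with 115 to 170 reads per library, was at 4.15, 3.88 and 4.19 CPM with vehicle and at 5.41, 6.02 and 5.96 CPM with TGFβ. The groups were again separate, with means of 4.07 ± 0.170 and 5.80 ± 0.336 CPM (SD, n = 3) and a log2 fold change of 0.51 (standard error 0.10, 95% confidence interval 0.28 to 0.74, edgeR adjusted p = 0.00532). The within-library ratio of *Slc25a12* to *Slc25a13* reads was 8.12 to 8.86 with vehicle and 4.56 to 5.12 with TGFβ. *Slc25a22*, a glutamate carrier without an exchange partner, did not pass the test (-0.02, standard error 0.11).

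**Figure D2:**
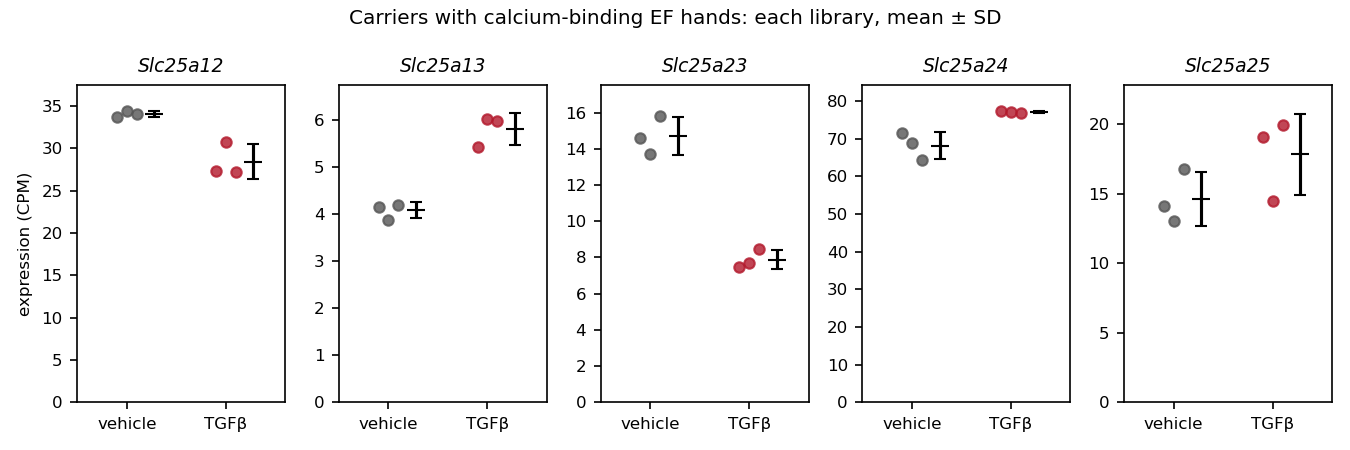
Expression in CPM (vertical axis, starting at 0 with its own range for each gene) of the 5 carriers with EF hands in each of 3 vehicle (grey) and 3 TGFβ (red) libraries, with the mean ± SD in black. *Slc25a13* and *Slc25a24* are higher and *Slc25a12* and *Slc25a23* lower in every TGFβ library, and the *Slc25a25* groups overlap.

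Carriers of ADP/ATP and phosphate serve oxidative phosphorylation and were, per kilobase, the most abundant of the family together with the citrate carrier. *Slc25a4*, which encodes the ADP/ATP carrier typical of heart and muscle, was at 427, 422 and 390.3 CPM with vehicle and at 422, 438 and 423 CPM with TGFβ. Its groups overlapped (log2 fold change 0.05, standard error 0.05). *Slc25a5*, the form found in growing cells, was at 147, 140 and 151 CPM with vehicle and at 180, 173 and 195 CPM with TGFβ. It rose in each TGFβ library relative to every vehicle library, by 24.9%, with a log2 fold change of 0.32 (standard error 0.06, edgeR adjusted p = 0.00304). In *Slc25a5*, 27.9% of the 75-base windows also occur in transcripts of 6 other genes. The 1 of these named as its pseudogene, *Slc25a5-ps*, had 2 to 7 reads per library, and reads of the others were not examined. How reads matching several genes were counted is not known, so the level of *Slc25a5* is uncertain by an unknown amount. *Slc25a3*, the phosphate carrier, overlapped between groups (0.09, standard error 0.05).

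The tricarboxylate and dicarboxylate carriers pass citrate, malate, succinate and oxoglutarate, which link the TCA cycle with lipid synthesis and with the malate-aspartate shuttle. *Slc25a1*, the citrate carrier, was at 139, 135 and 124 CPM with vehicle and at 154, 160.2 and 152 CPM with TGFβ. It rose by 17.2%, without overlap (log2 fold change 0.23, standard error 0.05, edgeR adjusted p = 0.00978). *Slc25a10*, the dicarboxylate carrier, was at 14.9, 14.9 and 17.0 CPM with vehicle and at 12.8, 12.3 and 14.6 CPM with TGFβ. Its TGFβ libraries lay below the vehicle libraries but the highest of them nearly touched the lowest vehicle value, and the test was not passed (-0.24, standard error 0.09, edgeR adjusted p = 0.0653). It was passed in 1 of the 12 alternative settings, without the TGFβ library at 14.6 CPM, at -0.32 (edgeR adjusted p = 0.0258). *Slc25a11*, the oxoglutarate/malate carrier of the malate-aspartate shuttle, was at 62.9, 59.1 and 55.4 CPM with vehicle and at 63.8, 64.1 and 64.5 CPM with TGFβ. Its groups did not overlap, but the test was not passed, at 0.12 (standard error 0.05, edgeR adjusted p = 0.106). *Slc25a11* passed in 1 of the 12 alternative settings, without the vehicle library at 62.9 CPM, at 0.16 (edgeR adjusted p = 0.0360). *Rnf167*, whose gene span overlaps that of *Slc25a11* on the opposite strand, had 25.8% as many reads over its whole length and a log2 fold change of -0.31. Of the 75-base windows in the longest *Slc25a11* transcript, 0% occur in transcripts of other genes. Windows of its other transcripts were not tested.

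Cofactor and nucleotide carriers held 3 genes called higher and 2 lower of 9 (55.6%), where 40.7% of all genes were called. *Slc25a32* supplies folate and FAD to mitochondria and rose from 11.7 ± 0.389 to 15.0 ± 0.517 CPM (SD, n = 3, log2 fold change 0.35, edgeR adjusted p = 0.00317). *Slc25a17*, an exception in location as a carrier of coenzyme A, FAD and NAD in the peroxisomal membrane, rose from 37.5 ± 1.10 to 47.6 ± 0.691 CPM (0.34, edgeR adjusted p = 0.000504). The 2 carriers linked to mitochondrial coenzyme A both fell. *Slc25a42*, the coenzyme A carrier, went from 5.78 ± 0.582 to 4.14 ± 0.570 CPM (SD, n = 3, -0.48, edgeR adjusted p = 0.0239), and *Slc25a16* from 25.7 ± 0.533 to 22.1 ± 0.790 CPM (-0.22, edgeR adjusted p = 0.0104). The call on *Slc25a42* was lost in 4 of 12 alternative settings, each of them without 1 library.

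*Slc25a33* and *Slc25a36* both carry pyrimidine nucleotides used for mitochondrial DNA and RNA. *Slc25a33* was at 7.60, 8.02 and 7.78 CPM with vehicle and at 8.74, 9.24 and 10.5 CPM with TGFβ, a log2 fold change of 0.28 (standard error 0.09, edgeR adjusted p = 0.0371). The groups were separate but unequal in spread, and the call was lost in 7 of the 12 alternative settings, DESeq2 among them. *Slc25a36* was at 44.1, 45.0 and 44.6 CPM with vehicle and at 44.3, 40.3 and 41.6 CPM with TGFβ, which overlapped (-0.08, standard error 0.05). In *Slc25a33*, 11.4% of 75-base windows also occur in *Gm13068*, an antisense gene at the same locus with no reads counted. In *Slc25a36*, 9.76% also occur in *Gm13217*. The carriers of NAD (*Slc25a51*, -0.03) and S-adenosylmethionine (*Slc25a26*, 0.01) did not pass the test. The gene span of *Slc25a26* overlaps that of *Lrig1*, which lies on the other strand and rose by 0.67 on the log2 scale. Reads over the whole of *Lrig1* amounted to 1239% of those of *Slc25a26*. Of the 75-base windows in the longest *Slc25a26* transcript, 3.50% occur in *Lrig1*.

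Iron and glutathione carriers feed heme and iron-sulfur cluster synthesis and the matrix pool of reduced glutathione. *Slc25a39*, the glutathione importer, was at 114, 109 and 110 CPM with vehicle and at 128, 137 and 142 CPM with TGFβ. Each TGFβ library exceeded the vehicle libraries, with a rise of 22.2% (log2 fold change 0.29, standard error 0.05, edgeR adjusted p = 0.00248). *Slc25a40*, its close relative, was at 14.3, 11.4 and 11.3 CPM with vehicle and at 12.5, 13.4 and 12.1 CPM with TGFβ. All TGFβ values lay inside the vehicle range (0.04, standard error 0.10). *Slc25a37* (mitoferrin 1) was at 22.9, 25.2 and 24.8 CPM with vehicle and at 27.3, 25.2 and 33.9 CPM with TGFβ. The library at 33.9 CPM stood above the others, and the log2 fold change of 0.25 did not pass the test (standard error 0.11, edgeR adjusted p = 0.105). *Slc25a37* passed in 1 of the 12 alternative settings, without the TGFβ library at 25.2 CPM (0.33, edgeR adjusted p = 0.0469). *Slc25a28* (mitoferrin 2) was at 7.79, 7.25 and 7.88 CPM with vehicle and at 7.27, 7.16 and 7.79 CPM with TGFβ, and the groups overlapped (-0.04, standard error 0.08).

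The carriers that resemble uncoupling proteins include *Slc25a14*, at 3.68, 3.10 and 3.45 CPM with vehicle and at 4.97, 4.66 and 4.42 CPM with TGFβ. These groups of 92 to 136 reads per library did not overlap, and the log2 fold change was 0.46 (standard error 0.12, edgeR adjusted p = 0.0162). The call was lost without the vehicle library at 3.10 CPM (edgeR adjusted p = 0.0620) and without the TGFβ library at 4.97 CPM (edgeR adjusted p = 0.0589). *Slc25a30* was at 14.6, 14.1 and 16.8 CPM with vehicle and at 12.0, 13.0 and 14.1 CPM with TGFβ. The highest TGFβ library came close to the lowest vehicle library, and the test was not passed (-0.22, standard error 0.09, edgeR adjusted p = 0.0915). *Slc25a27* was near 1 CPM and not called (-0.16, standard error 0.23).

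*Slc25a35*, whose solute is not settled, was at 5.19, 5.29 and 4.89 CPM with vehicle and at 3.29, 2.94 and 3.61 CPM with TGFβ. The groups were far apart at 82 to 165 reads per library, and expression fell by 36.0%, with a log2 fold change of -0.64 (standard error 0.12, 95% confidence interval -0.91 to -0.37, edgeR adjusted p = 0.00368). Of its 75-base windows, 23.1% also occur, on either strand, in transcripts of 4 other genes, *Rangrf* among them. *Rangrf*, which overlaps it on the opposite strand, had 124% as many reads and a log2 fold change of 0.39 (edgeR adjusted p = 0.0619), and strand use in counting was not given in the sources used here.

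The other less studied members were not called: *Slc25a43* (0.37, edgeR adjusted p = 0.0908), *Slc25a47* (0.23), *Slc25a53* (0.02), *Slc25a46* (0.0041) and *Slc25a45* (0.0011). *Slc25a46* differs from most of the family in that it sits in the outer membrane and acts in mitochondrial shape. Amino acid carriers other than those for aspartate and glutamate held 0 called genes of 4 by edgeR, DESeq2 or limma-voom. At an unadjusted p under 0.05 they also held 0. Of all genes, 40.7% were called by edgeR, and nothing is read from a count over 4 genes. The log2 fold changes of these 4 carriers were 0.09 for *Slc25a44* (branched-chain amino acids), 0.07 for *Slc25a38* (glycine), 0.02 for *Slc25a15* (ornithine) and -0.16 for *Slc25a29* (basic amino acids). Their confidence intervals were widest for *Slc25a29*, from -0.63 to 0.30. *Slc25a20*, the acylcarnitine carrier of fatty acid oxidation, averaged 36.2 ± 1.17 CPM in the vehicle libraries and 36.5 ± 0.827 CPM in the TGFβ libraries (SD, n = 3), with a 95% confidence interval of -0.09 to 0.11 on the log2 fold change.

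Related carriers were also set against each other inside each library, where library scaling cancels. The difference of a pair largely restates the fold changes of its 2 genes given above, and is not separate evidence. Of 12 pairs listed, 10 had both genes tested, and the 2 others could not be given because *Slc25a18* was too low and *Slc25a2* is not analysed here. In 9 of the 10 pairs the log2 ratio did not overlap between vehicle and TGFβ libraries. No share was computed for ratios of other gene pairs, *Slc25a10* and *Slc25a24* each stand in 2 pairs, and the pairs were chosen with earlier results known, so the count is a description. A two-sided exact permutation test gave p = 0.1 for each of the 9, the smallest p that 3 libraries against 3 allow, and 0.111 adjusted over the 10 pairs, so none could reach 0.05.

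The largest shift was that of *Slc25a23* against *Slc25a24*, with log2 ratios of -2.29, -2.33 and -2.02 with vehicle and -3.38, -3.33 and -3.18 with TGFβ. The difference was -1.08, and it stayed between -1.14 and -0.99 with each library left out in turn. For *Slc25a12* against *Slc25a13* the log2 ratio went from 3.06 ± 0.07 to 2.29 ± 0.09 (SD, n = 3), a difference of -0.77 with a range of -0.80 to -0.72 on leaving libraries out. For *Slc25a14* against *Slc25a30* it was 0.68 and for *Slc25a1* against *Slc25a10* 0.47, in both cases with 1 carrier called and the other not. The balance of *Slc25a4* to *Slc25a5* moved by -0.27, from CPM ratios of 2.58 to 3.01 with vehicle to 2.17 to 2.54 with TGFβ. The remaining pairs without overlap were *Slc25a33*/*Slc25a36* (0.36), *Slc25a10*/*Slc25a11* (-0.36), *Slc25a28*/*Slc25a37* (-0.28) and *Slc25a39*/*Slc25a40* (0.24). *Slc25a24*/*Slc25a25* overlapped (-0.10, exact permutation p = 1).

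**Figure D3:**
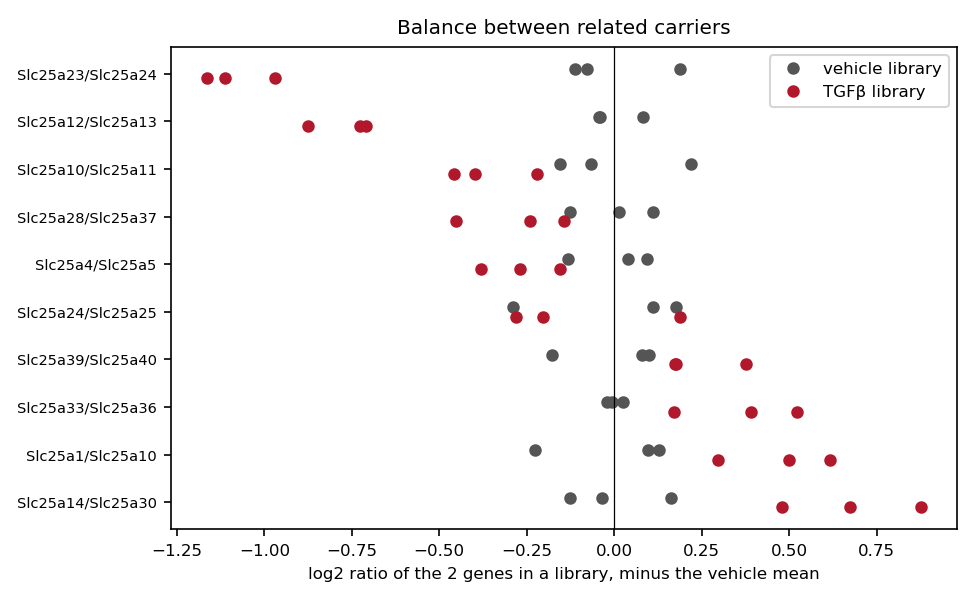
Log2 ratio of 2 related carriers in each library minus the mean ratio of the vehicle libraries (horizontal axis), for 10 pairs, with vehicle libraries in grey and TGFβ libraries in red, 3 points each. The ratio moved lowest for *Slc25a23*/*Slc25a24* (-1.08 on average) and highest for *Slc25a14*/*Slc25a30* (0.68), and the points of *Slc25a24*/*Slc25a25* are mixed.

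Levels between genes were compared as CPM per kilobase of annotated exon. *Slc25a4* was highest, at 176 ± 8.42 CPM per kb with vehicle and 182 ± 3.95 with TGFβ (SD, n = 3). *Slc25a5* followed at 88.7 ± 3.51 and 111 ± 6.92 CPM per kb. *Slc25a3* (61.8 ± 3.68) and *Slc25a1* (61.3 ± 3.60) were within their spread of each other with vehicle, and at 66.0 ± 1.68 and 71.8 ± 1.95 with TGFβ. *Slc25a39* came next at 40.2 ± 1.02 and 49.2 ± 2.52 CPM per kb. *Slc25a4*, *Slc25a5* and *Slc25a1* together made up 54.1% of the summed carrier level per kilobase with vehicle and 55.1% with TGFβ. At the low end of the tested genes, *Slc25a27* was at 0.245 CPM per kb with vehicle and 0.219 with TGFβ.

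Summed over the 44 carriers, expression was 1916, 1869 and 1825 CPM with vehicle and 1993, 2000.1 and 2028 CPM with TGFβ. After TMM scaling the groups did not overlap, at 1870 ± 45.4 and 2007 ± 18.4 CPM (SD, n = 3), a difference of 7.33%. The exact permutation test (two-sided) gave p = 0.1, the lowest it can give here. Of all genes tested, 53.3% also did not overlap. The TMM factors were 1.01 to 1.02 in the vehicle libraries and 0.967 to 0.996 in the TGFβ libraries. The separation of the sums therefore depends on scaling, and sums under another scaling are not given here. Without *Slc25a3*, *Slc25a4* and *Slc25a5* the sum differed by 6.48%.

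**Figure D4:**
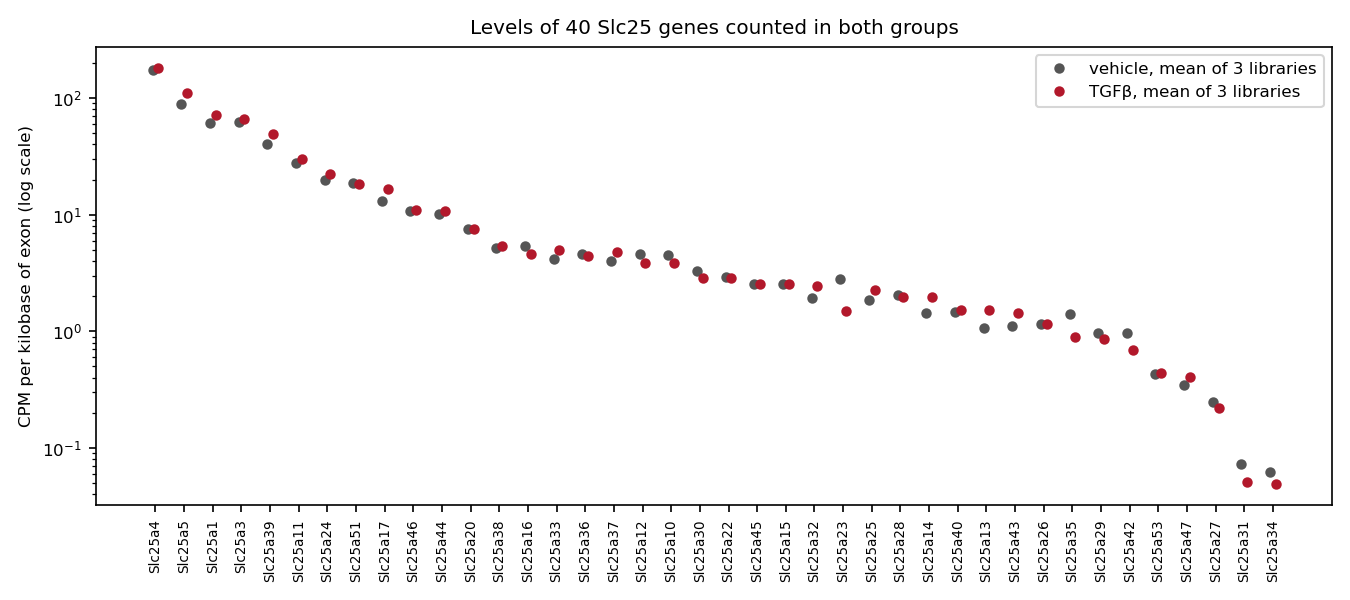
Mean expression in CPM per kilobase of exon (vertical log axis) of 40 carriers with reads in both groups, ordered by their mean over all libraries, for vehicle (grey) and TGFβ (red), 3 libraries each. *Slc25a4* leads at 176 with vehicle, levels span over 3 powers of 10, and *Slc25a23* and *Slc25a35* show grey points clearly above red.

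Family members under other symbols also changed. *Ucp2*, a carrier named as an uncoupling protein, rose from 14.3 ± 1.03 to 26.6 ± 2.67 CPM (SD, n = 3, log2 fold change 0.89, standard error 0.09, edgeR adjusted p = 0.000223). Its 3 TGFβ libraries, at 23.6 to 28.7 CPM, were all above the vehicle range of 13.3 to 15.4 CPM. *Mtch1* rose (0.43) and *Mtch2*, an outer membrane relative, fell (-0.18), which made 2 higher and 1 lower of the 3 tested. Of all genes 20.5% were higher and 20.1% lower, and nothing is read from a count over 3 genes. *Ucp3* was too low to be tested.

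Carriers reach the inner membrane through the TOM complex, the small TIM chaperones and the TIM22 complex. Of 13 such genes, 7 rose and 0 fell by edgeR at an adjusted p of 0.05 (9 and 0 unadjusted, and 5 and 0 by DESeq2), where 20.5% of all genes were higher and 20.1% lower, with a median log2 fold change of 0.24 beside -0.0013 over all genes. *Timm22*, which forms the insertion channel, rose from 21.7 ± 1.20 to 31.3 ± 0.745 CPM (SD, n = 3, 0.53, edgeR adjusted p = 0.000283). *Tomm40* (0.32), *Tomm70a* (0.25) and *Timm8b* (0.39) were also among the 7.

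Among 10 other mitochondrial channels and carriers, 1 rose and 2 fell by edgeR, where 20.5% of all genes were higher and 20.1% lower. Their median log2 fold change was 0.08, beside -0.0013 over all genes. The 2 that fell were sideroflexins, *Sfxn1*, a serine transporter, from 82.1 ± 5.57 to 56.0 ± 1.52 CPM (SD, n = 3, -0.55, edgeR adjusted p = 0.000234), and *Sfxn5*, from 4.93 ± 0.374 to 3.24 ± 0.199 CPM (-0.60, edgeR adjusted p = 0.00457). *Vdac3* rose (0.22), while *Vdac1* (0.0038) and the pyruvate carrier subunits *Mpc1* (0.10) and *Mpc2* (0.13) did not pass the test.

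Shuttle enzymes work with these carriers on both sides of the membrane. Of the 9 tested, 5 rose and 0 fell by edgeR (7 and 0 at an unadjusted p under 0.05, and 4 and 0 by DESeq2), beside the same 20.5% and 20.1% of all genes, with a median log2 fold change of 0.17 against -0.0013. *Got1*, the cytosolic aspartate aminotransferase of the malate-aspartate shuttle, rose from 52.5 ± 3.50 to 84.4 ± 0.776 CPM (SD, n = 3, 0.68, edgeR adjusted p = 6.53e-05). *Mdh2* (0.45), *Acly* (0.26) and *Mdh1* (0.15) also rose, and mitochondrial *Got2* (0.01) was not called.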

How the data were processed

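RNA-seq was done on poly(A) RNA with a stranded kit and single-end reads of 75 bases, in 3 vehicle and 3 TGFβ libraries. The authors aligned reads to mm10 and used DESeq2. The aligner, the counter, its gene annotation and whether strand was used are not given in the sources used here. The deposited table holds whole-number read counts per gene and library, without normalization. Its further columns hold the authors' own comparison (a mean of normalized counts, fold change, error, statistic and p-values) and were not used. Because the headers of the count columns give the group alone, libraries are named by group and total.

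Libraries were scaled with TMM factors, genes filtered with filterByExpr on the group (14334 of 25140 kept), and groups compared with edgeR 4.0.16 (quasi-likelihood, no covariate, R 4.3.3) with Benjamini-Hochberg adjustment over the 14334 genes and a threshold of 0.05. The standard error is the fold change over the square root of F, and the biological coefficient of variation was 7.97%. Libraries held 27851677 to 31072338 counts, and carriers with few reads have less precise values. Replicates differed by more than counting noise (chi-square per gene 7.95 to 27.1). Each library was counted once, and this spread does not show that the cultures were independent. The steps were tested on simulated data of 25140 genes, with 100 genes changed by 0.5 and 100 by 1 on the log2 scale. The changed genes were drawn from those with a mean over 1 CPM, so recovery below that level is not known. In this simulation edgeR recovered 75% and 92% of the changed genes, and 6.70% of its calls were false. Smaller changes, and changes in a large share of genes, were not simulated. Lengths, overlaps and shared 75-base windows come from GENCODE M21 (25086 genes matched by identifier), promoters from RefSeq. Values per library are printed for carriers called with a log2 fold change beyond 0.5 in size, for the 3 with the highest level per kilobase and for members of the listed pairs, and companion genes are named where called beyond 0.5, with a few others chosen after their values were seen. Results for a few genes taken in by these rules are not reported here. Members, lists, pairs and promoter motifs were chosen with earlier results of these data known. Alternatives were edgeR with median-of-ratios or upper quartile scaling, DESeq2 1.42.0, limma-voom (limma 3.58.1), no filter, at least 1 CPM in 3 libraries, leaving out each library, stricter thresholds and the longest transcript as gene length.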

Additional observations from a re-analysis of the deposited data

How the results depend on the processing

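No paired analysis was possible because the columns of the count table carry no replicate number. Over 12 alternative fits (scaling, test, filter and each library left out), the number of carriers called was 11 to 14 and the number of genes called 4489 to 5840. Of the 14 called carriers, 11 kept their call in every one of the 12 and 0 changed sign. With an adjusted p of 0.01, 9 of the 39 tested carriers (6 higher, 3 lower) and 3595 of the 14334 genes (1855 higher, 1740 lower) were called. With an adjusted p of 0.05 and a log2 fold change beyond 0.5 in size, 3 of the 39 carriers (1 higher, 2 lower) and 2316 of the 14334 genes (820 higher, 1496 lower) were. The direction of so few carriers is given as a description. The median log2 fold change of the carriers was 0.016 with upper quartile scaling and 0.031 to 0.075 with each library left out. With upper quartile scaling the median over all genes moved down too, from -0.0013 to -0.022. With the longest transcript as gene length, *Slc25a4*, *Slc25a5* and *Slc25a1* held 52.1% of the summed level, and *Slc25a3* stood above *Slc25a1*.

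*Slc25a33* lost its call with upper quartile scaling (0.26, edgeR adjusted p = 0.0544), with DESeq2 (0.28, DESeq2 adjusted p = 0.101) and without any 1 library but the TGFβ library of 27851677 reads, with edgeR adjusted p up to 0.115. *Slc25a42* lost it without the vehicle library of 31072338 reads (edgeR adjusted p = 0.0756) or 29296570 reads (0.0576), or the TGFβ library of 28894151 (0.0572) or 28641986 reads (0.0569). The causes were not tested.

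A change of sign occurred in 10 carriers that were not called. With upper quartile scaling, *Slc25a15* was at -0.0051, *Slc25a20* at -0.010, *Slc25a26* at -0.012, *Slc25a45* at -0.020 and *Slc25a46* at -0.017. *Slc25a45* and *Slc25a46* were at -0.0044 and -0.0011 with median-of-ratios scaling, -0.0045 and -0.0012 with DESeq2, and -0.0078 and -0.0049 with the filter of 1 CPM. With each library left out, the log2 fold change ranged from -0.089 to 0.10 for *Slc25a15*, -0.016 to 0.026 for *Slc25a20*, -0.14 to 0.039 for *Slc25a22*, -0.069 to 0.13 for *Slc25a26*, -0.31 to 0.057 for *Slc25a29*, -0.022 to 0.16 for *Slc25a40*, -0.11 to 0.066 for *Slc25a45*, -0.023 to 0.046 for *Slc25a46*, -0.073 to 0.0065 for *Slc25a51* and -0.033 to 0.10 for *Slc25a53*. Depth limits the 5 untested carriers, and strand use in counting limits those whose exons overlap exons of a gene on the other strand.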
